A study of Mus musculus with 24 samples.

Results

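NELFB and NELFE are subunits of the negative elongation factor (NELF), and the places they occupy were compared in 4 chromatin immunoprecipitation sequencing (ChIP-seq) libraries of control mouse embryonic stem cells. 2 libraries were made with an antibody to the HA tag carried by NELFB (NELFB:HA 1 and 2) and 2 with an antibody to NELFE (NELFE 1 and 2). In each library the enriched regions on chromosomes 1 to 19 were ranked by the authors' pileup, the mean ChIP coverage of a region, and the 10000 highest were kept. These are 40000 of the 1202670 regions of the 4 lists, and the 4 libraries are among the 24 samples of the series.

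All 4 libraries came from the E14 line of mouse embryonic stem cells, cultured with serum and LIF. Every cell carried the genotype written Nelfb deg in the labels, so the NELFE libraries also came from cells with the modified Nelfb gene. The treatment label was Control, in a series whose other arm received dTAG-13, a small molecule that sets off the breakdown of a tagged protein. The HA antibody is named as HA-Tag CST (C29F4) and that to NELFE as ab170104 from Abcam. The HA libraries read only the tagged form of NELFB. No label says that replicates came from separate cultures, so every p-value here measures the spread between libraries, which may be technical.

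NELF joins RNA polymerase II shortly after transcription starts and, with the factor DSIF (SPT4 and SPT5), holds it paused close to the gene start until the kinase P-TEFb releases it. NELFB lies in the body of the complex, and NELFE carries a domain that binds RNA. Both subunits are therefore usually mapped to the starts of genes transcribed by polymerase II. Transfer RNA (tRNA) genes are transcribed by another enzyme, RNA polymerase III, from promoter elements inside the gene.

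The regions of the 4 libraries merged into 12529 sites, of which 7786 (62.1%) held a top region of every library. Some of the strongest sites with both antibodies were promoters, and the bases before the start of 4 genes named in the results below are shown here. H3f3b encodes a replacement histone and stood among the 5 sites of best mean rank, H1f4 encodes a linker histone whose site ranked higher with NELFB:HA, and Csnk2a2 (a casein kinase subunit) and Ptpn21 (a tyrosine phosphatase) are protein-coding genes whose sites ranked higher with NELFE. Each sequence is the 250 bases before the gene start on the strand of the gene, from RefSeq on GRCm38.p6 (mm10). Capitals mark short motifs found on either strand. TATAAA is the core of the element that often sets the start position. CCAAT is the letter core bound by factors such as NF-Y. GGGCGG is the element bound by factors of the SP1 family.
H3f3b, chr11:116024505-116024754, minus strand: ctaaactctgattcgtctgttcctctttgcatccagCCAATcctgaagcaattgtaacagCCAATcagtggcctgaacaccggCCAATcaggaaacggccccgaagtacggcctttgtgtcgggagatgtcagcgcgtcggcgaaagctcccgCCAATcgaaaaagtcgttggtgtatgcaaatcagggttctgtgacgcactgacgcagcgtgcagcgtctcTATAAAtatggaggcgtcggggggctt
H1f4, chr13:23622559-23622808, minus strand: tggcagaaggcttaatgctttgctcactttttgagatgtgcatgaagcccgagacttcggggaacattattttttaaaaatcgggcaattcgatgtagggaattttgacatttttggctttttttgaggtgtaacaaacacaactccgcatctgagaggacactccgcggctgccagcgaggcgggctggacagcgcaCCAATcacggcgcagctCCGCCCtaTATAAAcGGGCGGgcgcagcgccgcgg
Csnk2a2, chr8:95488821-95489070, minus strand: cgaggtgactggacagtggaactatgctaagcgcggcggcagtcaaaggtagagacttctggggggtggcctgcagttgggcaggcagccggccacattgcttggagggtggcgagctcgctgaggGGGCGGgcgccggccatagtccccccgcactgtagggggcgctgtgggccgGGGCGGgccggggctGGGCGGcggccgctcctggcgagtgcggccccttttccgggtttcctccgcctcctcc
Ptpn21, chr12:98734646-98734895, minus strand: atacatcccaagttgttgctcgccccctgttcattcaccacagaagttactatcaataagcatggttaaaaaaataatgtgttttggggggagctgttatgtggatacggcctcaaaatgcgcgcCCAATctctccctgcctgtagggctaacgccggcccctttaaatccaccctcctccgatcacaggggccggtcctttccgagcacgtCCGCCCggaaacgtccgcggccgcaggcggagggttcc

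The H3f3b site lay at chr11:116023412-116026965 and ranked 7 and 18 with NELFB:HA and 9 and 21 with NELFE, where 1 is the highest of the 11416 sites that had a region of any rank in all 4 lists. Its fold enrichment over the input was 19.3 and 10.9 with NELFB:HA and 13.9 and 13.1 with NELFE, so the groups overlapped on both measures. The promoter of Polr2a, the largest subunit of RNA polymerase II, had the same mean rank, at chr11:69757018-69760632. Its ranks were 14 and 7 with NELFB:HA and 30 and 4 with NELFE. The remaining sites of best mean rank were not promoters. They lay at an 18S ribosomal RNA-like gene (Rn18s-rs5, chr17:39843054-39848780), inside Sfi1 (chr11:3192458-3193785) and at chr14:19415905-19417486, where RefSeq has no gene. At these 3 sites the fold enrichment stayed between 1.19 and 1.86 in every library, so their high coverage was nearly matched by the input.

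The libraries differed in depth and in the strength of their top regions. They held 28944909 to 41312333 tags after filtering, with replicate 1 the deeper of each antibody. The full lists held 341441 and 442824 regions with NELFB:HA and 202704 and 215701 with NELFE. The lowest pileup kept was 17.46, 13.2, 17.45 and 16.19 in NELFB:HA 1 and 2 and NELFE 1 and 2, and the first region left out had the same value in each. The median fold enrichment was 4.03 and 3.23 with NELFB:HA and 4.81 and 5.12 with NELFE, and the groups did not overlap. Regions with a fold enrichment under 2 numbered 558 and 1155 with NELFB:HA and 189 and 158 with NELFE. Chromosome 14 held 240 and 473 of them with NELFB:HA and 31 and 33 with NELFE. NELFB:HA 2 thus stood apart, with the most regions of low enrichment.

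Most sites were shared between the subunits, about as often as between replicates of 1 antibody. Sharing was the percent of the 10000 regions of one library that overlapped a top region of another by at least 1 bp, as the mean of both directions. The NELFB:HA replicates shared 85.0% and the NELFE replicates 90.8%. NELFB:HA 1 shared 88.1% with NELFE 1 and 87.6% with NELFE 2, and NELFB:HA 2 shared 84.9% and 84.6% with them. NELFB:HA 1 was thus closer to either NELFE library than to its own replicate, while the NELFE replicates were closer to each other than any other pair. The mean over antibody pairs was 1.62 percentage points below the mean over replicate pairs (exact two-sided permutation test over the 4 libraries, p = 0.333, the smallest that 2 against 2 can give; Benjamini-Hochberg adjusted p = 0.381 over 8 tests). That sign depended on the replicate pair it was set against, and without NELFE replicate 1 or 2 the difference was 1.13 or 1.50 points above 0.

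**Figure D1:**
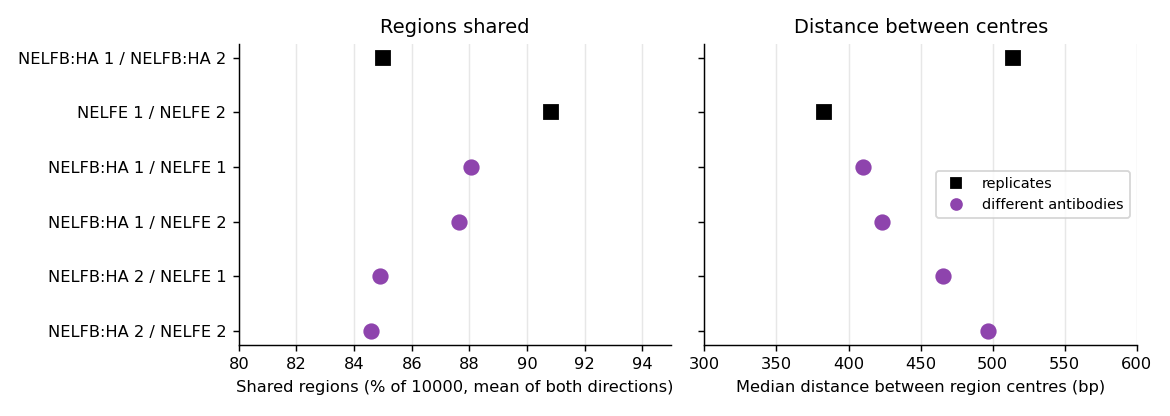
Each row is a pair of libraries, with the percent of regions shared on the left and the median distance in bp between region centres on the right. Squares are replicate pairs and circles are pairs of different antibodies. The NELFE replicates share the most, 90.8%, and the NELFB:HA replicates (85.0%) lie among the antibody pairs. Neither axis starts at 0.

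Agreement was close to complete for the strongest regions and fell off toward the bottom of the 10000. Of the 1000 highest regions of NELFB:HA 1, 99.4% and 99.8% overlapped a top region of NELFE 1 and 2. From rank 5001 to 10000 those shares were 76.4% and 75.8%, and the share in the other NELFB:HA library was 70.6%. For NELFE 1 over the same lower ranks, 78.5% and 72.5% of regions were found in NELFB:HA 1 and 2 and 82.4% in NELFE 2. The order of the sites was also alike, with a Spearman correlation of site ranks of 0.852 between NELFB:HA replicates, 0.906 between NELFE replicates and 0.825 to 0.865 between antibodies. This is a correlation across 11416 sites, which share libraries and are not independent replicates.

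The few strong regions of one subunit without a counterpart in the other were of different kinds. Among the 1000 highest regions of NELFE 1, 10 had no top region in either NELFB:HA library, and the same number was found for NELFE 2. All 10 in each library overlapped a tRNA gene, as 25 and 22 of all 1000 did, and their median fold enrichment was 11.8 and 9.22. Among the 5000 highest, 89 and 84 NELFE regions lacked a NELFB:HA counterpart, and 82 and 74 of them overlapped a tRNA gene. Of all 5000, 131 and 124 did. In the opposite direction 16 and 32 of the 5000 highest NELFB:HA regions lacked a NELFE counterpart. None of them overlapped a tRNA gene, and their median fold enrichment was 1.37 and 1.60.

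Regions were wider in both NELFB:HA libraries than in either NELFE library, although the spread between replicates was large. The median width of the 10000 regions was 1947 and 2122 bp with NELFB:HA and 1711 and 1872 bp with NELFE. The difference was 243 bp, with a pooled SD between replicates of 119 bp (n = 2 per antibody; exact permutation p = 0.333, adjusted p = 0.381). At the 7786 sites common to all libraries the medians were 2195 and 2446 bp against 1879 and 2073 bp. That difference was 345 bp with a pooled SD of 159 bp (exact permutation p = 0.333, adjusted p = 0.381). The 2 antibodies did not overlap at the common sites, and replicate 2, with fewer tags, was the wider of each pair.

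Width at single sites showed the same order. Both NELFB:HA libraries were wider than both NELFE libraries at 1858 of the 7786 common sites, or 23.9%, and the reverse held at 875, or 11.2%. In the 1947 common sites with the best mean rank the medians were 2360 and 2655 bp with NELFB:HA and 2059 and 2314 bp with NELFE. In the 1947 of poorest rank they were 2072 and 2138 bp against 1757 and 1912 bp. Wider NELFB:HA regions were thus seen at strong and weak common sites alike, although with NELFB:HA 2 the fold enrichment was lowest at these sites (3.65, against 4.65 in NELFB:HA 1 and 5.47 and 5.83 with NELFE). Region edges are set by where enrichment over the library's input ends, and the part of that enrichment in the width was not tested.

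The added width lay on both sides of the gene start. At 4519 common sites whose gene starts within 1000 bp all lay on 1 strand, distances were measured along the gene from the start. The upstream edge had a median position of -888 and -1013 bp with NELFB:HA and of -734 and -840 bp with NELFE. The downstream edge lay 1008 and 1148 bp after the start with NELFB:HA and 874 and 981 bp after it with NELFE. Upstream the groups did not overlap and the difference, NELFB:HA minus NELFE, was -163.5 bp (pooled SD 81.9 bp). Downstream they did not overlap either and the difference was 150.5 bp (pooled SD 88.1 bp). Both tests gave the smallest exact permutation p, 0.333 (adjusted p = 0.381).

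**Figure D2:**
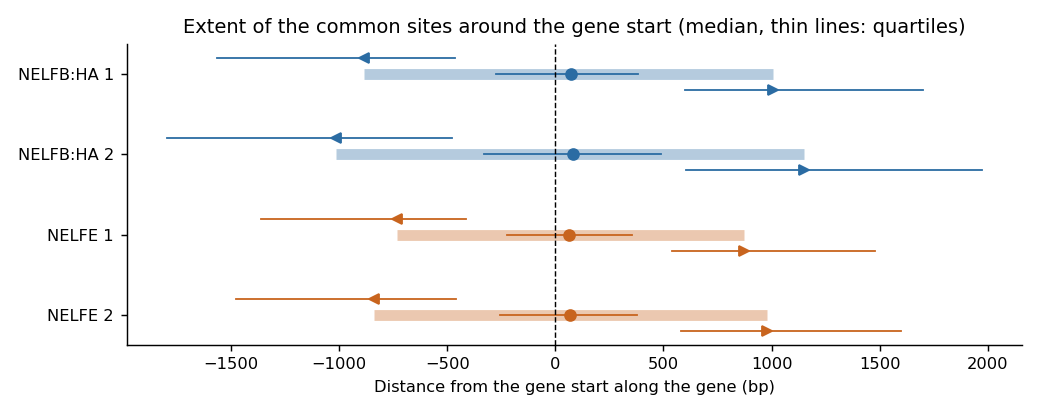
Position of the common sites along the gene, in bp from the gene start, for each library. Thick bars join the median upstream and downstream edges, symbols are medians, and thin lines span the quartiles over 4519 sites. The NELFB:HA bars extend farther on both sides, while all 4 centres lie 63.5 to 82 bp after the start.

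The centres of the regions barely differed between the subunits. The median centre lay 72.5 and 82 bp downstream of the start with NELFB:HA and 63.5 and 67 bp with NELFE, a difference of 12 bp with a pooled SD of 5.06 bp (exact permutation p = 0.333, adjusted p = 0.381). Without NELFB:HA replicate 2 it was 6 bp. The distance between centres was also measured directly at common sites with 1 top region in each library, of which there were 7518. It had a median of 514 bp between NELFB:HA replicates and 383 bp between NELFE replicates. Between antibodies the 4 medians were 410, 424, 466 and 497 bp. The antibody pairs and the replicate pairs differed by 0.75 bp (exact permutation p = 1, adjusted p = 1), against offsets of 383 and 514 bp between replicates, so at this resolution no separation of the subunits along the gene was detectable.

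At most sites the ranks of the subunits overlapped. A site was counted as higher with one antibody when both its ranks with that antibody were better than both with the other. NELFB:HA was higher at 2258 of the 11416 ranked sites, or 19.8%, and NELFE at 2058, or 18.0%. These counts describe the measure that ranked the regions and have no test. Most gaps were modest, with a median of 556 ranks for NELFB:HA and 545 for NELFE between the nearest ranks of the antibodies. Gaps over 5000 ranks were found at 78 sites higher with NELFE, of which 71 held a tRNA gene, and at 1 site higher with NELFB:HA. Of all 11416 ranked sites, 131 (1.15%) held a tRNA gene. Gaps over 2000 ranks were found at 208 sites higher with NELFE, 98 of them with a tRNA gene, and at 127 higher with NELFB:HA, none with a tRNA gene. Wide gaps included sites that entered through 1 antibody alone, where the lower rank with the other was fixed by that entry. This held for 77 of the 131 tRNA sites, all of them higher with NELFE. Nothing is therefore read from the tRNA share of the wide gaps.

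The tRNA genes carried regions far more often with NELFE than with NELFB:HA. RefSeq lists 391 of them on chromosomes 1 to 19, and a top region overlapped 265 in NELFE 1 and 265 in NELFE 2, or 67.8% in each. The counts with NELFB:HA were 52 and 54, or 13.3% and 13.8%. 264 tRNA genes were covered in both NELFE libraries, and 194 of these had no top region in either NELFB:HA library. No gene was covered in both NELFB:HA libraries and in neither NELFE library, and 36 were covered in all 4. The tRNA genes were singled out after these values were seen, so the counts are given with no test.

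**Figure D3:**
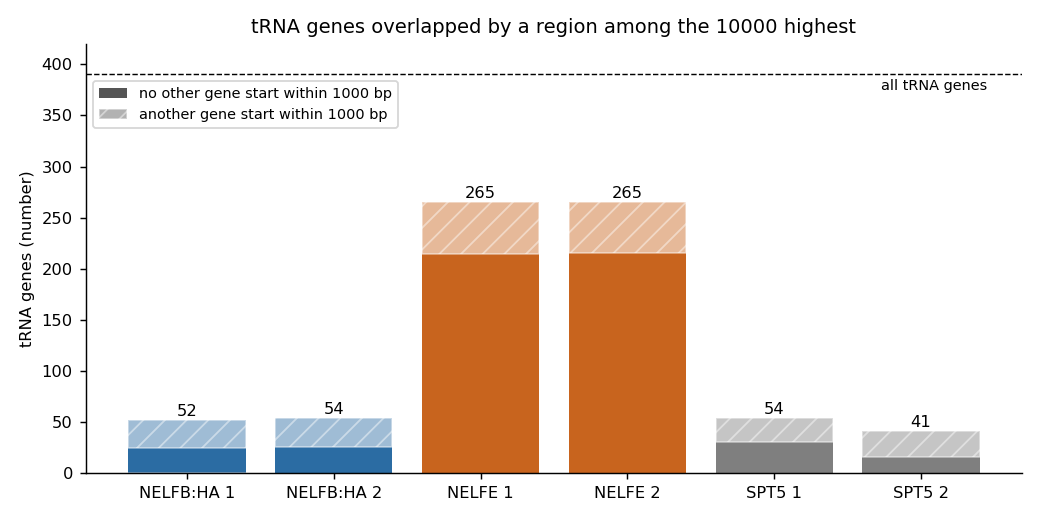
Number of the 391 RefSeq tRNA genes on chromosomes 1 to 19 overlapped by a region among the 10000 highest of each library. Solid bars are genes with no other annotated start within 1000 bp and hatched bars are genes with one. Both NELFE libraries reach 265 genes, against 52 and 54 with NELFB:HA and 54 and 41 with SPT5.

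The difference was also present at tRNA genes away from polymerase II promoters. Of the 391 tRNA genes, 336 had no start of a protein-coding or long noncoding RNA gene within 1000 bp in the RefSeq promoter table. A top region covered 214 and 215 of these with NELFE and 24 and 25 with NELFB:HA. Of the 55 tRNA genes close to another start, 51 and 50 were covered with NELFE and 28 and 29 with NELFB:HA. Over the full lists, where NELFB:HA has more regions, any region covered 283 and 281 tRNA genes with NELFE and 157 and 198 with NELFB:HA. For those of the 336 distant genes that had a region, the median of the highest fold enrichment was 7.12 and 7.68 with NELFE, and 1.87 and 1.78 with NELFB:HA. The NELFB:HA regions at distant tRNA genes were thus mostly within 2-fold of the input, and those of NELFE were mostly above it.

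The other RefSeq gene classes were covered at nearly the same share in the 4 libraries. A top region overlapped 45.8% and 44.5% of protein-coding genes with NELFB:HA and 45.7% and 45.9% with NELFE. For long noncoding RNA genes the shares were 11.9% and 11.7% against 12.2% and 12.1%. Small nucleolar RNA genes were covered at 6.69% and 7.85% with NELFB:HA and 6.69% and 7.0% with NELFE, and microRNA genes at 8.10% and 7.92% against 8.10% and 8.71%. For small nuclear RNA genes the shares were 5.16% and 5.16% against 4.62% and 4.83%.

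SPT5, the DSIF subunit mapped in the same series with longer tags and another extension, was at tRNA genes about as often as NELFB:HA. Its 10000 highest regions covered 54 and 41 of the 391 genes, and 30 and 16 of the 336 distant ones. The median highest fold enrichment at distant genes with a region was 1.77 and 1.65. The antibody and the tag length of SPT5 cannot be told apart.

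The NELFE signal extended over nearly all amino acid families of tRNA. Grouped by the amino acid in the gene symbol, more than 50% of the genes were covered in 19 of 20 families in each NELFE library and in 0 of 20 in each NELFB:HA library. All 10 tRNA-Tyr and all 7 tRNA-Phe genes were covered with NELFE, against 3 and 1 tRNA-Tyr and 1 and 2 tRNA-Phe genes with NELFB:HA. For tRNA-Lys the counts were 16 and 16 of 25 with NELFE and 0 and 0 with NELFB:HA. NELFB:HA covered its largest share in tRNA-Arg, with 11 and 10 of 23 genes against 22 and 22 with NELFE. The exception was tRNA-Cys, the largest family with 56 genes, of which 6 and 7 were covered with NELFE and 0 and 1 with NELFB:HA. Without tRNA-Cys, and without the 6 genes whose symbol names no amino acid, NELFE covered 259 and 258 of 329 genes and NELFB:HA 52 and 53.

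In terms of rank, 157 merged sites held a tRNA gene and 131 of them had a region in every list. Of the 131, 77 had no top region in a NELFB:HA library and entered through NELFE, so their lower NELFB:HA rank was fixed by that choice and nothing is read from it. 43 had a top region in all 4 libraries. At 29 of these 43 both NELFE ranks were above both NELFB:HA ranks, and at 1 the reverse held, where 18.0% and 19.8% of all ranked sites were so called. Their median rank was 4865 and 4347 with NELFB:HA and 2325 and 2017 with NELFE, and their median fold enrichment was 4.07 and 3.08 against 7.0 and 7.85. Over all 131 the count higher with NELFE was 117. The 10 sites with the largest gaps in favour of NELFE all held tRNA genes, and each lacked a top NELFB:HA region.

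The widest gap was at chr11:58301870-58303795, which holds n-TEctc10, a tRNA-Glu gene, and n-TLcaa3, a tRNA-Leu gene. It ranked 101 and 98 with NELFE and 11408 and 11280 with NELFB:HA. Its fold enrichment was 18.6 and 12.1 with NELFE and 1.59 and 1.69 with NELFB:HA. The start of Gm39827, a predicted gene, lies within 1000 bp of it. The second was at chr11:48833560-48834810, with n-TAtgc9 (tRNA-Ala) and n-TKctt10 (tRNA-Lys), at ranks 579 and 370 with NELFE and 11219 and 11105 with NELFB:HA. Its fold enrichment was 12.8 and 11.9 against 1.89 and 1.74. Neither site had a top region in a NELFB:HA library, so the low NELFB:HA ranks of both were fixed by entry through NELFE. The fold enrichment was higher in both NELFE libraries at both sites, but it comes from the same regions and is not separate support.

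The larger tRNA clusters named next also lacked a top NELFB:HA region, which fixed their lower NELFB:HA ranks. The site at chr13:23516879-23522674 holds 6 tRNA genes and ranked 868 and 1096 with NELFE and 11241 and 10681 with NELFB:HA. The site at chr1:171100404-171103625 holds 4 (n-TDgtc5, n-TEctc6, n-TGtcc3 and n-TLcag9) and ranked 1057 and 617 with NELFE and 10792 and 11028 with NELFB:HA. A further site with 4 tRNA genes, at chr11:69122309-69126139, ranked 1021 and 690 with NELFE and 10891 and 10935 with NELFB:HA. In all 3 clusters the fold enrichment was at least 8.72 with NELFE and at most 1.85 with NELFB:HA. These values come from the same regions as the ranks and are not separate support.

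**Figure D4:**
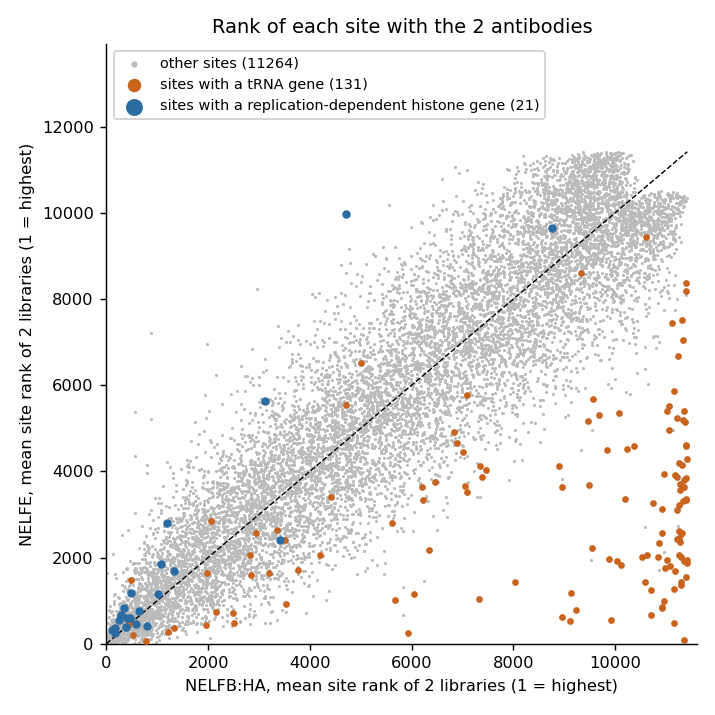
Mean site rank over the 2 NELFE libraries against that over the 2 NELFB:HA libraries, with 1 the highest, for the 11416 ranked sites. The dashed line marks equal rank. Most of the 131 tRNA sites lie below the line, and 77 of them entered through a NELFE region alone, which places them at the right. A histone site that also holds a tRNA gene is drawn as a tRNA site.

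Further genes of polymerase III were then looked up, a set also chosen after the tRNA values were seen. Rn7sk encodes the 7SK RNA, which holds P-TEFb inactive. Its highest region (gene at chr9:78175302-78175633) ranked 697 and 645 among all regions with NELFE and 4900 and 7027 with NELFB:HA. The fold enrichment was 10.8 and 7.91 against 5.00 and 2.41. Rn7s2, a gene for the RNA of the signal recognition particle, ranked 615 and 2349 with NELFE and 7726 and 5347 with NELFB:HA. Rmrp, the RNA of RNase MRP, ranked 2301 and 1404 against 6958 and 3881. All 3 genes stood higher in both NELFE libraries, by less than the tRNA sites named above.

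The Y RNA genes and the RNA of RNase P varied more. Rny1 ranked 4806 and 5670 with NELFE and 7323 and 10981 with NELFB:HA. Rny3 ranked 8264 and 8307 with NELFE, and with NELFB:HA it was at 63843 in replicate 1 and had no region in replicate 2. Rpph1, the RNase P RNA, was closest, at 1704 and 1477 with NELFE and 2206 and 2793 with NELFB:HA. The region at Rn7s1 was that of the ribosomal protein gene Rps29, so the 2 genes cannot be told apart there.

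Among sites without a RefSeq tRNA gene, those with the largest gaps in favour of NELFE included several with no gene at all. The largest was at chr6:128758807-128761371, ranked 1938 and 1480 with NELFE and 10647 and 11065 with NELFB:HA. Its fold enrichment was 9.36 and 10.0 against 2.50 and 2.05. The next was close by at chr6:128762723-128765626, ranked 2449 and 1822 against 10527 and 11375. Protein-coding promoters entered lower in that order. The Csnk2a2 site, at chr8:95488112-95489552, ranked 6077 and 5590 with NELFE and 10237 and 10203 with NELFB:HA. The Ptpn21 site, at chr12:98733027-98738128, ranked 3499 and 4162 against 9815 and 8076. Both promoters were higher in both NELFE libraries, with gaps of 4126 and 3914 ranks. The Csnk2a2 site and both chr6 sites had no top NELFB:HA region. Their lower NELFB:HA ranks were fixed by that, and nothing is read from those ranks.

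Sites higher with NELFB:HA had fewer very wide gaps. The widest was at chr9:24541285-24543183, where RefSeq has no gene, with ranks of 1342 and 398 against 7721 and 6701. Its fold enrichment lay between 1.57 and 1.82 in all 4 libraries. The next was the histone H3 gene H3c14 at chr3:96246977-96249150, which ranked 4303 and 5115 with NELFB:HA and 10527 and 9414 with NELFE. Here the fold enrichment also separated the antibodies, at 4.40 and 3.53 with NELFB:HA and 2.88 and 2.94 with NELFE. The other 8 of the 10 widest gaps ran from 3170 to 4229 ranks. They included the promoters of Kctd13, an adaptor of a ubiquitin ligase (4419 and 3799 against 8018 and 8059), Epb41l3 (7287 and 5891 against 11096 and 10488) and Fads2, a fatty acid desaturase (3884 and 2993 against 7079 and 7117). The Epb41l3 site had no top NELFE region, so its lower NELFE rank was fixed by entry through NELFB:HA.

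Replication-dependent histone genes, which are clustered and give mRNAs without a poly(A) tail, ranked higher with NELFB:HA where the ranks separated. The list of histone cluster genes had 16 members found in RefSeq by symbol of the 29 on it, on 9 sites. NELFB:HA was higher at 4 of the 9 sites and NELFE at none, against 19.8% and 18.0% of all sites. The median rank difference of the list, NELFB:HA minus NELFE, was -201 ranks, against -42.1 over all ranked sites. All 62 histone genes found by symbol pattern, a list made after the values were seen, had 56 genes with a site, on 22 sites. NELFB:HA was higher at 8 of them and NELFE at none. The count was 12 with a mean pileup per site, and 15, 14, 11 and 16 without NELFB:HA 1, NELFB:HA 2, NELFE 1 and NELFE 2, where fewer ranks must be in order.

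Apart from H3c14, the histone sites looked at singly did not have a higher fold enrichment with NELFB:HA. The site of H4c1, H4c2, H3c1 and H1f1 ranked 152 and 67 with NELFB:HA and 222 and 400 with NELFE. Its fold enrichment was 13.1 and 13.1 with NELFB:HA and 14.3 and 11.7 with NELFE, and overlapped. The H1f4 site ranked 1315 and 1060 with NELFB:HA and 3378 and 2220 with NELFE, with a fold enrichment of 7.23 and 5.25 against 7.25 and 7.93. Over the 22 histone sites the median fold enrichment was 8.98 and 8.65 with NELFB:HA and 10.9 and 11.2 with NELFE, following the overall level of each library.

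**Figure D5:**
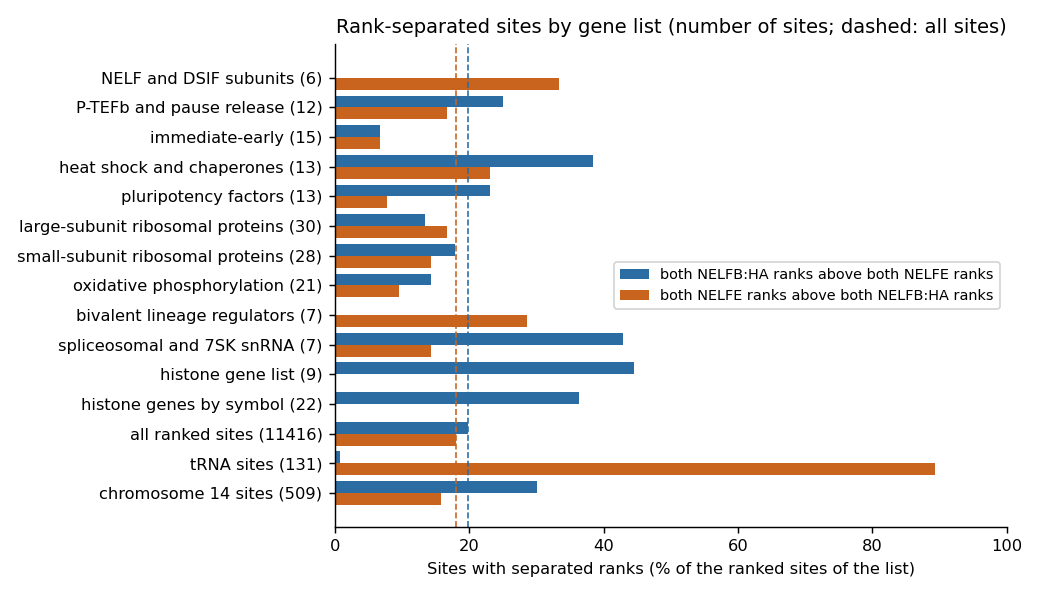
Percent of the ranked sites of each gene list at which both ranks of one antibody were above both of the other, with the number of sites in brackets. Dashed lines mark all ranked sites, 19.8% for NELFB:HA and 18.0% for NELFE. The tRNA sites reach 89.3% for NELFE, a share that their entry through NELFE regions raises, and neither histone list has a site higher with NELFE.

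The genes of the pausing machinery themselves mostly had a ranked site, which by definition holds a region of both subunits. All 6 NELF and DSIF genes had a ranked site, as 51.6% of the 20665 protein-coding genes did. NELFE was higher at 2 of these few sites and NELFB:HA at none, against 18.0% and 19.8% of all ranked sites. Supt5, which encodes SPT5, ranked 1556 and 397 with NELFB:HA and 2020 and 1060 with NELFE. Nelfa ranked 582 and 2630 against 816 and 472, and both overlapped between antibodies. Of the P-TEFb and pause release genes, 12 of 13 had a site, with NELFB:HA higher at 3 and NELFE at 2 (Hexim1 and Mllt1). Hexim1, the partner of 7SK in holding P-TEFb, ranked 636 and 695 with NELFB:HA and 605 and 366 with NELFE. Aff4, a scaffold of the super elongation complex, overlapped at 817 and 454 against 842 and 775.

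Genes known for strong pausing mostly had a ranked site. The immediate-early list had a site for 15 of 16 genes, where 51.6% of all protein-coding genes had one. NELFB:HA was higher at 1 and NELFE at 1 (Btg2), against 19.8% and 18.0% of all ranked sites. The site higher with NELFB:HA lay within 1000 bp of Fosl1 but did not overlap that gene. Dusp1, a phosphatase of the MAP kinase pathway, ranked 297 and 71 with NELFB:HA and 263 and 102 with NELFE. Jund, a subunit of AP-1, ranked 570 and 19 against 617 and 133. Among heat shock and chaperone genes, on 13 sites, NELFB:HA was higher at 5 and NELFE at 3, against the same 19.8% and 18.0%. Dnaja1 ranked 103 and 156 with NELFB:HA and 176 and 362 with NELFE. Hspe1, a mitochondrial chaperonin, overlapped at 653 and 98.5 against 278 and 813. Hsp90aa1, the inducible form of HSP90, was higher with NELFE (435 and 1516 with NELFB:HA and 89 and 15 with NELFE), and Hsp90ab1, the constitutive form, with NELFB:HA (455 and 252 against 757 and 612).

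Most pluripotency genes, which mark the labelled cell type, had a ranked site. Of the pluripotency factors 13 of 16 had a ranked site, and of the bivalent lineage regulators, which are held silent in stem cells, 7 of 22 did, against 51.6% of all protein-coding genes. NELFB:HA was higher at 3 of the 13 sites (Klf4, Sox2 and Tdgf1) and NELFE at 1 (Lin28a), against 19.8% and 18.0% of all ranked sites. Klf5 ranked 396 and 359 with NELFB:HA and 324 and 888 with NELFE, and Klf2 ranked 1656 and 76.5 against 1312 and 2026. Pou5f1, which encodes OCT4, ranked 7235 and 5516 against 6861 and 6578. These 3 overlapped between antibodies. At the 7 bivalent sites NELFE was higher at 2 (Gata6 and Foxa2) and NELFB:HA at none. Sox17, an endoderm regulator, overlapped, at 4684 and 8223 against 6407 and 6168.

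Ribosomal protein genes were called about as often as all ranked sites (19.8% for NELFB:HA and 18.0% for NELFE). The large-subunit ribosomal protein genes had 30 sites, with 4 higher with NELFB:HA and 5 with NELFE, and the small-subunit genes had 28, with 5 and 4. Rplp1 ranked 108 and 104 with NELFB:HA and 133 and 125 with NELFE, and Rplp0 79 and 233 against 302 and 60. Rps19 ranked 360 and 33 against 42 and 267. Oxidative phosphorylation genes had 21 sites, with 3 and 2. Atp5a1, the alpha subunit of ATP synthase, ranked 222 and 434 against 488 and 887, and Cox4i1, a cytochrome oxidase subunit, 1531 and 645 against 779 and 583. Small nuclear RNA genes had only 7 sites and a median rank difference of -864, with 3 higher with NELFB:HA (Rnu2-10, Rnu7 and Rnu5g) and 1 with NELFE, which was Rn7sk. Rnu12 and Rnu11, of the minor spliceosome, overlapped at 241 and 332 against 821 and 214 and at 1175 and 744 against 1081 and 2565.

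Promoters at the separated sites differed somewhat in base composition and motifs, described here over the 300 bases around each start that RefSeq gives (250 before and 50 after). CCAAT stood on either strand in 34.2% of 2071 promoters in sites higher with NELFB:HA and in 43.9% of 1863 promoters in sites higher with NELFE. The share was 38.2% of the 10610 promoters in ranked sites and 37.3% of all 31396. GGGCGG stood in 71.0% and 67.8%, against 69.4% in ranked sites and 36.0% of all. TATAAA stood in 5.60% and 5.74%, against 6.0% in ranked sites and 13.6% of all. The median GC content was 64% and 61.7%, against 62.7% in ranked sites.

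The histone promoters differed from the rest in these letters. CCAAT stood in 86.2% of 58 histone promoters and TATAAA in 58.6%, as both do in the H1f4 sequence above. H4c11, a histone gene whose site was also higher with NELFB:HA, has neither in the 250 bases before its start. GGGCGG stood in 37.9% of the histone promoters, against 69.4% of promoters in ranked sites. The median GC content of the histone promoters was 45.3%. GGTTCGA is the core of the internal B box of tRNA genes. It was in 1.26% of promoters higher with NELFB:HA and 1.88% of those higher with NELFE. The share was 1.54% of promoters in ranked sites and 0.889% of all. A match is a description of letters in a window and not a binding site. None of these letter strings contains another.

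Regions near gene starts made up most of the 10000 in every library. The share within 1000 bp of a RefSeq start was 68.8% and 66.4% with NELFB:HA and 69.1% and 69.0% with NELFE. The groups did not overlap, and the difference was -1.48 percentage points (pooled SD 1.20 points; exact permutation p = 0.333, adjusted p = 0.381). NELFB:HA 2 set it apart: without that library the difference was -0.28 points. Without chromosome 14 it was -0.51 points (exact permutation p = 1). Among regions with a fold enrichment of at least 2 the shares were 71.9% and 72.0% with NELFB:HA and 70.2% and 69.8% with NELFE, so the order was the opposite. When the 10000 highest were taken from such regions only, the difference was -0.62 points.

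Chromosome 14 carried a larger share of the NELFB:HA regions than of the NELFE regions. It held 6.0% and 8.25% of the 10000 with NELFB:HA and 4.0% and 4.08% with NELFE. Among regions with a fold enrichment of at least 2 the shares were 3.81% and 3.98% against 3.76% and 3.81%. Of the 965 sites with a top region in NELFB:HA 2 alone, 395 lay on chromosome 14, and 16.1% of the 965 lay near a gene start. Of the 227 sites with a top region in both NELFB:HA libraries and neither NELFE library, 68 lay there and none held a tRNA gene. The 393 sites in both NELFE libraries and neither NELFB:HA library had 11 on chromosome 14. A tRNA gene was held by 99 of the 393, or 25.2%, against 1.25% of all merged sites. Where a library had a region of any rank, the median fold enrichment at the 227 sites was 1.91 and 1.86 with NELFB:HA. With NELFE it was higher there, at 2.24 and 2.26. At the 393 sites it was 3.54 and 3.79 with NELFE and 2.23 and 1.97 with NELFB:HA.

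Most separated sites were also occupied by SPT5, with little difference between the directions. A top SPT5 region overlapped 71.8% and 75.5% of the sites higher with NELFB:HA, in SPT5 1 and 2, and 72.9% and 76.7% of those higher with NELFE. The shares over all ranked sites were 74.0% and 78.1%. At the 131 tRNA sites they were 37.4% and 36.6%, and 37.4% of those sites lay near a gene start.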

How the data were processed

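ChIP-seq peak lists of 4 libraries (2 NELFB:HA, 2 NELFE) were compared, with 2 SPT5 libraries for reference, and the other 18 samples are not analysed here. The submitters' processing notes name Bowtie2, deepTools and MACS2 and the build mm10. Peaks were called with MACS 2.1.1.20160309 in broad mode, per the file headers, on each library against an input and without pooling replicates. Tags were extended to 227 bp (206 bp for SPT5). The inputs of NELFB:HA 1 and 2 and NELFE 1 and 2 held 38240408, 38427034, 32566070 and 26160905 tags after filtering. Both SPT5 libraries list an input of 50899697 tags. The part of input depth in the fold enrichment was not tested. The pileup signal deposited by the authors is the mean coverage of a region after scaling, so it was used only to rank regions within a library. The deposited fold enrichment is a ratio to the local input, and the deposited −log10 p-value is a mean over the region. Broad regions carry no summit, so positions rest on edges and centres, and a pileup averaged over a region also depends on its width.

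The 10000 highest regions on chromosomes 1 to 19 were taken per library, ties being broken by −log10 p. Regions sharing at least 1 bp were merged into sites. For ranks, the highest pileup region of each library in the site was used, at sites with a region in all 4 full lists. RefSeq genes and promoters (GRCm38.p6) gave names, and a list's genes took the ranked site of best mean rank within 1000 bp of the gene. Values per library were compared with an exact permutation test, whose smallest p is 0.333. The named sites are the 5 of best mean rank, the 10 widest gaps in each direction and the 2 best members of each list, and the tRNA genes, other polymerase III genes, symbol-based histone genes and sites without a tRNA gene were added after their values were seen. The members and lists were chosen with earlier results of these data known. Some list members that this rule names are not reported here. Depth is given as tags per library, and counting error was not estimated for regions. The functions were tested on simulated lists with known overlap, width and rank changes. Python 3.11.15, numpy 2.4.6, pandas 2.3.3, scipy 1.17.1 and matplotlib 3.10.9 were used. Alternatives tried were 5000 or 20000 regions, other ranking columns, stricter overlap, joined regions, a 500 bp window, a mean pileup per site, each library left out, no chromosome 14 and a fold enrichment of at least 2, the last 2 and the single libraries being chosen after seeing the data.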

Additional observations from a re-analysis of the deposited data

How the results depend on the processing

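Directions held for the width, edge and centre differences under every alternative run. The width difference ranged from 113.5 to 282 bp over the alternatives that keep all libraries and from 155.5 to 330 bp with libraries left out, and the values at common sites ranged from 314 to 378 and from 212 to 451.75 bp. With libraries left out, the upstream edge difference ranged from -222.5 to -99.5 bp, the downstream edge from 83.5 to 220.5 bp and the centre from 6 to 17 bp. Leaving out 1 library at a time took the sharing difference from -6.10 to 1.50 points, the centre offset from -73 to 94.3 bp and the promoter share from -2.68 to -0.28 points. The first 2 turned sign without either NELFE library (sharing 1.13 and 1.50 points, offset -52.5 and -73 bp), since only the NELFB:HA replicate pair then remains. With 5000 regions the centre offset was -1.25 bp and the promoter share difference 0.45 points, both reversed. The cause was not tested. No value for sharing or centre offset exists without both libraries of 1 replicate number, since no replicate pair is left.

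Sites higher with NELFB:HA and with NELFE numbered 1229 and 1126 with 5000 regions and 3624 and 3286 with 20000, in step with the regions ranked. With libraries left out they ranged from 3829 to 5592 and from 3446 to 5355 (34.1% to 51.8% and 30.8% to 49.1% of ranked sites), because fewer ranks must then be in order. tRNA genes with a NELFB:HA region were 21.5 on average with 5000 regions and 94 with 20000, against 220 and 272 with NELFE, and ranged from 52 to 54 with libraries left out, against 265. When only regions with a fold enrichment of at least 2 were used, NELFB:HA covered 56 and NELFE 266 tRNA genes on average, and 36 tRNA sites were still ranked and higher with NELFE, since most had no such NELFB:HA region.

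The replicate numbers of the titles were checked for pairing. The rank differences between replicates 1 and 2 had a correlation of 0.00546 between antibodies over 11416 sites, so the site ranks showed no pairing. Site ranks cannot tell whether libraries of the same number shared a culture or batch. With both antibodies, replicate 1 was the deeper and replicate 2 had the wider regions. With a replicate block the width difference stayed 243 bp (exact permutation p = 0.5, the smallest for 2 pairs), the sharing difference was -1.59 points and the centre offset 5.25 bp, and 3246 and 2911 sites (28.4% and 25.5%) were higher with NELFB:HA and NELFE in both pairs.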
